A study of Bos taurus with 18 samples.

Results

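The comparison described here asks where epithelial cells (bEECs) and stromal cells (bESCs) of the bovine endometrium differed in their transcript response to 2 conceptus-derived proteins. It uses all 18 of the 18 RNA sequencing samples in the series. Within each cell type, the mean of the rbCAPG and rbPDI groups was set against the vehicle control (VC) group on the log2 scale, and the change in bESCs was subtracted from the change in bEECs. A positive log2 difference therefore means a larger rise, or a smaller fall, in bEECs, and a negative one means the same in bESCs. The larger change is used here for the more positive one, so it can also stem from a fall in the other cell type. The cells were primary cells from the late-luteal uterine tracts of 3 cattle, cultured in a 3D endometrium-on-a-chip device. The epithelial and stromal cells of an animal shared a device, on opposite sides of a porous membrane, with bEECs in the chamber under flow and bESCs in a static chamber. The 6 groups were bEECs and bESCs exposed for 24 h to PBS vehicle (VC), to recombinant bovine CAPG (rbCAPG, 1 µg/mL) or to recombinant bovine PDI (rbPDI, 1 µg/mL), with n = 3 animals in each.

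Both proteins entered on the epithelial side, so cell type, flow and direct contact with the protein cannot be told apart in this design. The study judged the cell preparations under a light microscope to be highly enriched for their cell type and referred to earlier flow cytometry of such preparations. RNA was amplified with a SMART-Seq kit before sequencing, and total counts ran from 10072851 to 44253149 per sample. Of these, the shallowest libraries were the bESC samples of animal 1 with rbPDI and with VC (20488416). The count data show RNA in bulk, in which fewer cells of a type and less RNA per cell cannot be told apart. Gene symbols were known for 190 genes, from 2 tables that the study chose on these same samples, 1 of genes that changed with rbCAPG in bEECs and 1 of genes that changed with rbCAPG in bESCs. Named genes are thus biased towards genes that respond, and towards the cell type of the table they come from. The counts per gene group given here are for that reason not independent evidence of a direction.

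CAPG is an actin-capping protein and PDI is an endoplasmic reticulum enzyme that forms and rearranges disulfide bonds, and both have been found among proteins released by the conceptus. In the endometrium, the epithelium is the first maternal layer to meet the conceptus, and the stroma beneath it takes part in prostaglandin production and tissue remodelling. Many of the genes described below are known targets of NF-kB, a family of transcription factors that IkB proteins hold in the cytoplasm until a signal releases them. Its targets include chemokines, which draw leukocytes into a tissue, cytokines, the prostaglandin enzyme PTGS2 and several of the proteins that switch NF-kB off again.

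Exposure to the proteins altered 110 of 17931 tested genes differently in bEECs and bESCs, which is 0.613% of the genes tested (edgeR quasi-likelihood test, Benjamini-Hochberg adjusted p under 0.05 and absolute log2 difference above 1). The difference favoured bEECs for 91 genes (0.508%) and bESCs for 19 (0.106%). Of the 91, 72 rose in bEECs and were not called in bESCs, 8 rose in both cell types, 3 fell in bESCs only by the test within each cell type, and 8 were called in neither. Of the 19, 15 rose in bESCs and were not called in bEECs, 3 fell in bEECs and were not called in bESCs, and 1 was called in neither. No called gene rose in one cell type and fell in the other by these tests. Within each cell type, the pooled protein response comprised 588 genes in bEECs (3.28%), of which 511 rose (2.85%) and 77 fell (0.429%). In bESCs it comprised 155 genes (0.864%), of which 147 rose (0.82%) and 8 fell (0.0446%).

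**Figure D1:**
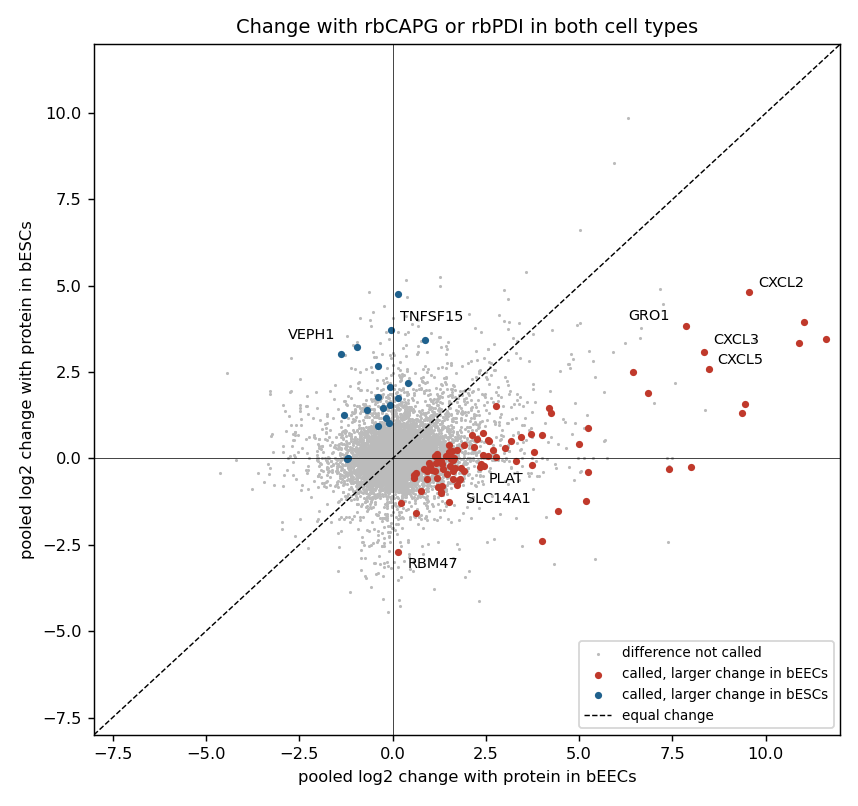
Each point is 1 of 17931 tested genes, with its pooled log2 change with protein in bEECs on the x axis and in bESCs on the y axis. The 91 genes with a called, more positive change in bEECs (red) lie below the dashed line of equal change. The 19 with a more positive change in bESCs (blue) lie above it, while grey points were not called.

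Each of the 110 genes had the same sign of the difference in 3 of 3 animals (26.4% of the genes tested did) and in 6 of 6 combinations of animal and protein, which share their VC samples (11.7%). Because the 110 were called in a fit with the animal as a block, this is a description of the called genes and no separate support for them. The number of called genes depended on the fit and on single libraries. It was 25 without the animal as a block, all of them among the 110, and it fell to 37 without the VC bEEC sample of animal 3, 48 without that of animal 1, 62 without the VC bESC sample of animal 1, 64 and 69 without the rbPDI bEEC samples of animals 2 and 3, and 72, 71 and 66 without the rbCAPG bEEC samples of animals 1, 2 and 3. Of the 110 genes, 36 have a symbol, 31 with the larger change in bEECs and 5 with the larger change in bESCs. Only 10 of these 36 kept their call in each of the 18 fits that left out 1 library, namely CXCL5, CXCL3, CXCL2, TNFAIP2, PLAT, SLC14A1, CYRIA, FERMT1, VEPH1 and MARCHF3. Leaving out all samples of animal 1 ended each of these 10 calls except that of VEPH1 (edgeR adjusted p = 0.0439), at edgeR adjusted p-values from 0.0504 for SLC14A1 to 0.224 for FERMT1. The log2 difference then was 4.22 for CXCL3 (5.26 with all samples) and 3.50 for CXCL2 (4.73). It was 2.865 for TNFAIP2 (2.82), 2.54 for SLC14A1 (2.50), 1.76 for CYRIA (1.70), 1.37 for FERMT1 (1.32) and -2.375 for MARCHF3 (-2.16). For CXCL5 it was 5.54 (5.89), for PLAT 2.52 (2.58) and for VEPH1 -4.11 (-4.19). Fits without an animal also hold fewer samples, so a lost call does not show that it rested on that animal. Without animal 2, CYRIA, FERMT1 and MARCHF3 were not called, and without animal 3, PLAT, SLC14A1, FERMT1 and MARCHF3 were not called. As bEECs and bESCs of an animal shared devices, the fit was repeated with the device as a block, and of the genes with a symbol CXCL5, CXCL3, CXCL2, TNFAIP2, PLAT, SLC14A1, CYRIA, NAV3, EDN1, VEPH1 and MARCHF3 kept their call. All others lost it under that block, among them FERMT1 (edgeR adjusted p = 0.0583), GRO1 (0.0634), C1R (0.0752), AHI1 (0.130) and ZEB1 (0.143). Of the 36 and the 4 identifiers described below together, 25 lost their call without the VC bEEC sample of animal 3 and 21 without that of animal 1, against 0 to 15 without any other library.

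Of the 11 chemokine genes and receptors tested, all 11 rose in bEECs, 10 rose in bESCs, and 4 differed between the cell types, each with the larger rise in bEECs. These 4 were CXCL5, CXCL3, CXCL2 and GRO1, which encode CXC chemokines that attract neutrophils. The median log2 difference of the 11 was 1.73, against 0.00418 over all tested genes, and 10 of the 11 come from the table chosen in bESCs. For this and the gene groups below, the shares over all tested genes were 2.85% rising in bEECs, 0.82% rising in bESCs and 0.613% differing. CXCL5 (ENSBTAG00000009812) stood at 15.4, 18.2 and 25.1 CPM (counts scaled to a common library size) in VC bEECs of animals 1, 2 and 3. It reached 6748, 2704 and 9398 CPM with rbCAPG and 12152, 4872 and 11274 CPM with rbPDI. In VC bESCs CXCL5 was already at 3666, 8609 and 1946 CPM, and it stood at 18532, 21864 and 19389 CPM with rbCAPG and at 24839, 33921 and 36659 CPM with rbPDI. Every protein sample was above every VC sample of its own cell type, and bEECs with protein overlapped only the VC range of bESCs. The log2 change was 8.47 in bEECs (SE 0.63) and 2.58 in bESCs (SE 0.47), a difference of 5.89 (SE 0.64, edgeR adjusted p = 0.000717).

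CXCL3 (ENSBTAG00000037778) was also lower in bEECs than in bESCs with VC, but not with protein. It was at 0.906, 2.24 and 2.09 CPM in VC bEECs and between 376 and 1162 CPM in the 6 protein-treated bEEC samples, whereas bESCs had 52.9, 43.99 and 15.2 CPM with VC and between 207 and 615 CPM with protein. The log2 difference was 5.26 (SE 0.70, edgeR adjusted p = 0.00340). CXCL2 (ENSBTAG00000027513) was at 0.635, 1.09 and 0.598 CPM in VC bEECs and at 62.4, 39.0 and 18.5 CPM in VC bESCs. With protein it ranged from 284 to 2024 CPM in bEECs and from 672 to 1263 CPM in bESCs, so that the treated groups overlapped, and the log2 difference was 4.73 (SE 0.65, edgeR adjusted p = 0.00410). GRO1 (ENSBTAG00000037558) also overlapped after exposure, from 306 to 805 CPM in bEECs and from 259 to 714 CPM in bESCs, with VC values of 1.03 to 3.59 CPM and 12.2 to 39.9 CPM. Its log2 difference was 4.02 (SE 0.67, edgeR adjusted p = 0.0133), and the call was lost without the VC bEEC sample of animal 1 (3.48), the VC bEEC sample of animal 3 (4.03) or the VC bESC sample of animal 1 (3.45), at edgeR adjusted p-values up to 0.0793. The per-animal differences of the last 3 genes were largest in animal 1, at 7.40, 7.13 and 6.24 for CXCL3, CXCL2 and GRO1, against values from 2.03 to 5.195 in animals 2 and 3.

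These chemokine genes are related in sequence, and reads that match more than 1 gene were split into fractions by the authors' counting. Between 13 and 17 of the 18 deposited values of CXCL5, CXCL3, CXCL2 and GRO1 held a fraction, so the level of each is uncertain where reads could be shared. By symbol in the RefSeq gene table, CXCL3 lies directly beside both CXCL2 and GRO1, and CXCL5 lies in the same cluster.

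**Figure D2:**
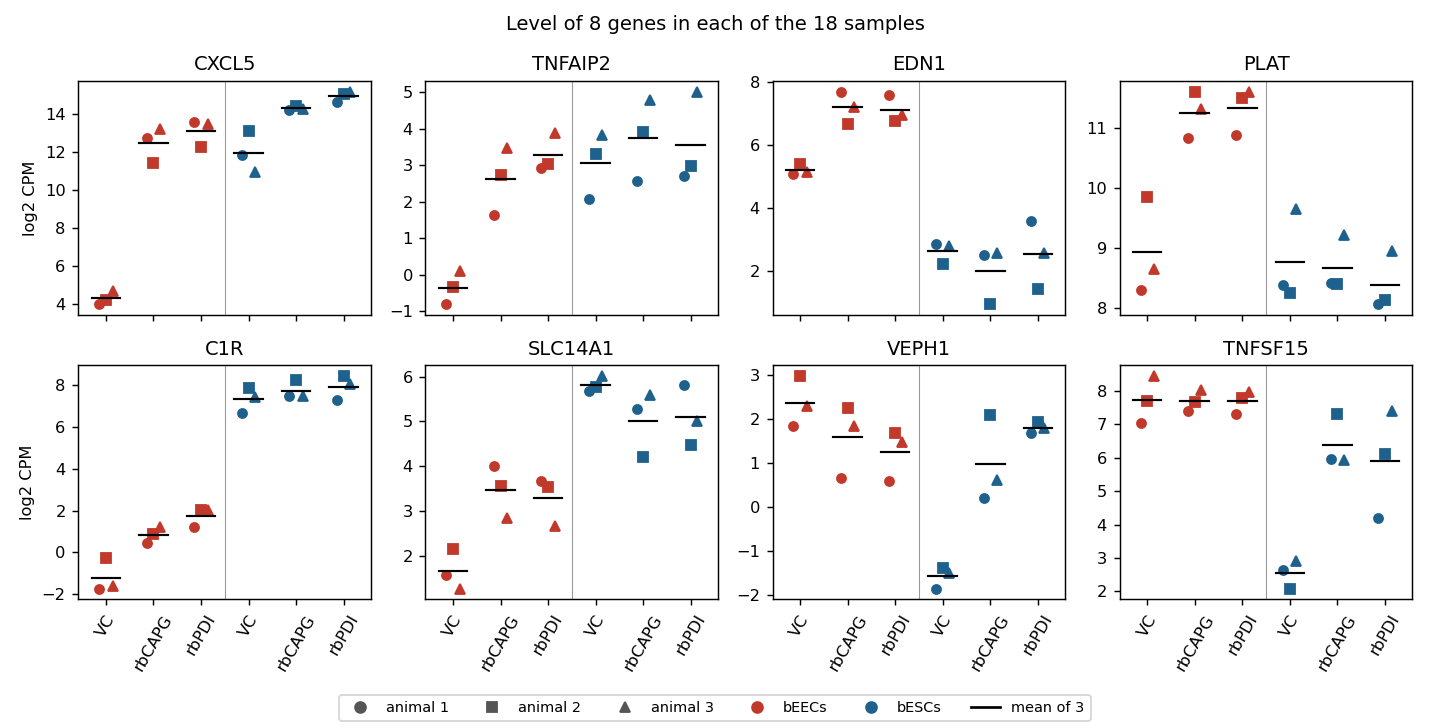
The log2 CPM of 8 genes is plotted for each of the 18 samples, with bEECs in red and bESCs in blue, symbols for the 3 animals, and a bar at the mean of each group. CXCL5, TNFAIP2, EDN1, PLAT, C1R and SLC14A1 move more, or move up only, in bEECs, and VEPH1 and TNFSF15 move up in bESCs.

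Other chemokines rose in both cell types without a called difference. Chosen after their values were seen, CXCL8, a neutrophil chemokine, CCL5, which draws T cells and monocytes, and CCL20, the ligand of CCR6, are examples. The log2 change of CXCL8 was 4.95 in bEECs and 3.86 in bESCs, and the 95% interval of the difference ran from -0.82 to 3.00. In VC bEECs CXCL8 was uneven, at 116 CPM in animal 1 against 6.85 and 4.34 CPM in animals 2 and 3. For CCL5 the changes were 5.02 and 3.93, with an interval from -0.27 to 2.44. CCL20 had the larger log2 change in bESCs, 8.55 against 5.93 in bEECs, with an interval from -4.64 to -0.59 and an edgeR adjusted p of 0.289. These intervals are wide, and differences of 2-fold or more remain within each of them.

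Cytokines, peptide ligands and their receptors were divided between the cell types. Of 13 tested, 11 rose in bEECs and 7 in bESCs, 4 had a called larger change in bEECs (EDN1, IL1RN, TNFRSF9 and CD40) and 1 had a called larger change in bESCs (TNFSF15). Of the 13, 11 come from the table chosen in bEECs and 5 from the table chosen in bESCs, with some in both. EDN1 (ENSBTAG00000008096) encodes the precursor of endothelin, a vasoactive peptide. It was at 33.8, 42.2 and 35.2 CPM in VC bEECs, 208, 103 and 149.5 CPM with rbCAPG and 194, 108 and 124 CPM with rbPDI. In bESCs EDN1 lay between 4.62 and 7.27 CPM with VC and between 1.87 and 12.1 CPM with protein, so the bESC groups overlapped. The log2 difference was 2.30 (SE 0.36, edgeR adjusted p = 0.00947), close to the same in each animal (2.39, 2.35 and 2.18), and 2.28 with an edgeR adjusted p of 0.0615 without the VC bEEC sample of animal 3.

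IL1RN (ENSBTAG00000019665), the secreted antagonist of the interleukin-1 receptor, stood at 33.8 to 42.5 CPM in VC bEECs and 80.5 to 197 CPM with protein, while all 9 bESC samples were between 0.223 and 1.15 CPM. Its log2 difference of 1.98 (SE 0.37, edgeR adjusted p = 0.0256) thus rests on very low counts in bESCs. TNFRSF9 (ENSBTAG00000003313), a costimulatory receptor of activated lymphocytes, ran from 0.538 to 0.704 CPM in VC bEECs and from 4.34 to 25.4 CPM with protein. In bESCs the VC samples were at 2.91, 0.413 and 0.664 CPM and the treated samples between 0.705 and 8.17 CPM, a log2 change of 1.46 (SE 0.37, edgeR adjusted p = 0.0912, not called) against 4.18 (SE 0.41) in bEECs. CD40 (ENSBTAG00000020736), a receptor through which T cells activate other cells, rose in both cell types, by 2.77 in bEECs and 1.51 in bESCs on the log2 scale, with a difference of 1.26 (SE 0.26, edgeR adjusted p = 0.0466). IL1RN, TNFRSF9 and CD40 kept their calls in 9, 10 and 4 of the 18 fits that left out 1 library, with the highest edgeR adjusted p-values at 0.0876, 0.153 and 0.158. IL6, named after its values were seen, rose in both cell types and had log2 differences of 1.12, -1.32 and -4.42 in the 3 animals, so no shared direction was seen (95% interval -3.004 to 0.38).

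Most NF-kB genes rose in both cell types. Of 14 subunits, regulators and target transcription factors tested, 12 rose in bEECs and 11 in bESCs, and 1 differed, TNFAIP2. The median log2 difference of the 14 was 0.35, and 5 of them come from the table chosen in bEECs and 11 from the table chosen in bESCs, with some in both. TNFAIP2 (ENSBTAG00000035995), a gene induced by tumour necrosis factor, was at 0.514, 0.736 and 1.02 CPM in VC bEECs, at 3.06, 6.65 and 11.02 CPM with rbCAPG and at 7.58, 8.13 and 14.7 CPM with rbPDI. In bESCs it was at 4.14, 9.86 and 14.1 CPM with VC, at 5.93, 15.0 and 27.5 CPM with rbCAPG and at 6.43, 7.87 and 32.4 CPM with rbPDI. The bEEC groups did not overlap, and in bESCs the spread between animals covered the groups. The log2 difference was 2.82 (SE 0.36, edgeR adjusted p = 0.00276), 2.53, 3.08 and 2.49 in the 3 animals. Without the animal as a block TNFAIP2 was not called (edgeR adjusted p = 0.501), and over all alternatives its adjusted p ran from 3.89e-11 to 0.501.

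NFKBIA (ENSBTAG00000016683) encodes the inhibitor that holds NF-kB in the cytoplasm and is itself an NF-kB target. Its log2 change was 3.41 in bEECs (SE 0.29) and 1.79 in bESCs (SE 0.26), and the difference of 1.62 (SE 0.34) fell just short of the threshold (edgeR adjusted p = 0.0510). Of its per-animal differences, animal 1 gave 2.82 and animals 2 and 3 gave 1.09 each. ZC3H12A, an RNase that degrades cytokine mRNAs, rose in both cell types (2.78 and 1.92 on the log2 scale, difference 0.86, 95% interval 0.28 to 1.45, edgeR adjusted p = 0.211). IRF1, a transcription factor of the interferon response, rose in bESCs (1.43, SE 0.24) with a log2 change of 0.46 (SE 0.23) in bEECs that was not called, and the difference was not called either (-0.97, edgeR adjusted p = 0.231). The change of TNFAIP3, a deubiquitinase that limits NF-kB signalling and was chosen after its values were seen, was 2.32 in bEECs and 2.55 in bESCs, with a narrow interval of the difference from -0.86 to 0.42.

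Among the 5 prostaglandin, eicosanoid and nitric oxide genes tested, 4 rose in each cell type. Of the 5, 2 come from the table chosen in bEECs and 3 from the table chosen in bESCs. PTGS2, the inducible cyclooxygenase of prostaglandin synthesis, was at 3.80 to 5.74 CPM in VC bEECs and 32.5 to 72.3 CPM with protein, and at 14.7 to 36.8 CPM in VC bESCs and 151 to 770.1 CPM with protein. The log2 changes of PTGS2 were 3.10 and 3.76, and the interval of the difference ran from -1.71 to 0.39 (edgeR adjusted p = 0.793). PLA2G4A, the phospholipase that frees arachidonic acid, rose by 1.34 in bEECs and by 1.92 in bESCs on the log2 scale (interval -1.27 to 0.12). ALOX12, a lipoxygenase, rose by 1.98 in bEECs and 1.26 in bESCs (interval 0.02 to 1.42, edgeR adjusted p = 0.472). PLA2R1 (ENSBTAG00000032515), a receptor that binds secreted phospholipases, had the single called difference of this group, at 2.69 (SE 0.45, edgeR adjusted p = 0.0133). It lay at 0.272, 0.993 and 0.598 CPM in VC bEECs, at 0.744, 7.16 and 4.94 CPM with rbCAPG and at 3.20, 9.01 and 5.80 CPM with rbPDI, and the lowest treated sample, animal 1 with rbCAPG, lay below the highest VC sample. In bESCs PLA2R1 ranged from 20.4 to 48.5 CPM with VC and from 25.6 to 51.6 CPM with protein, and without any of the 3 VC bEEC samples the difference stayed between 2.60 and 2.78 but was not called, at edgeR adjusted p-values up to 0.0981.

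**Figure D3:**
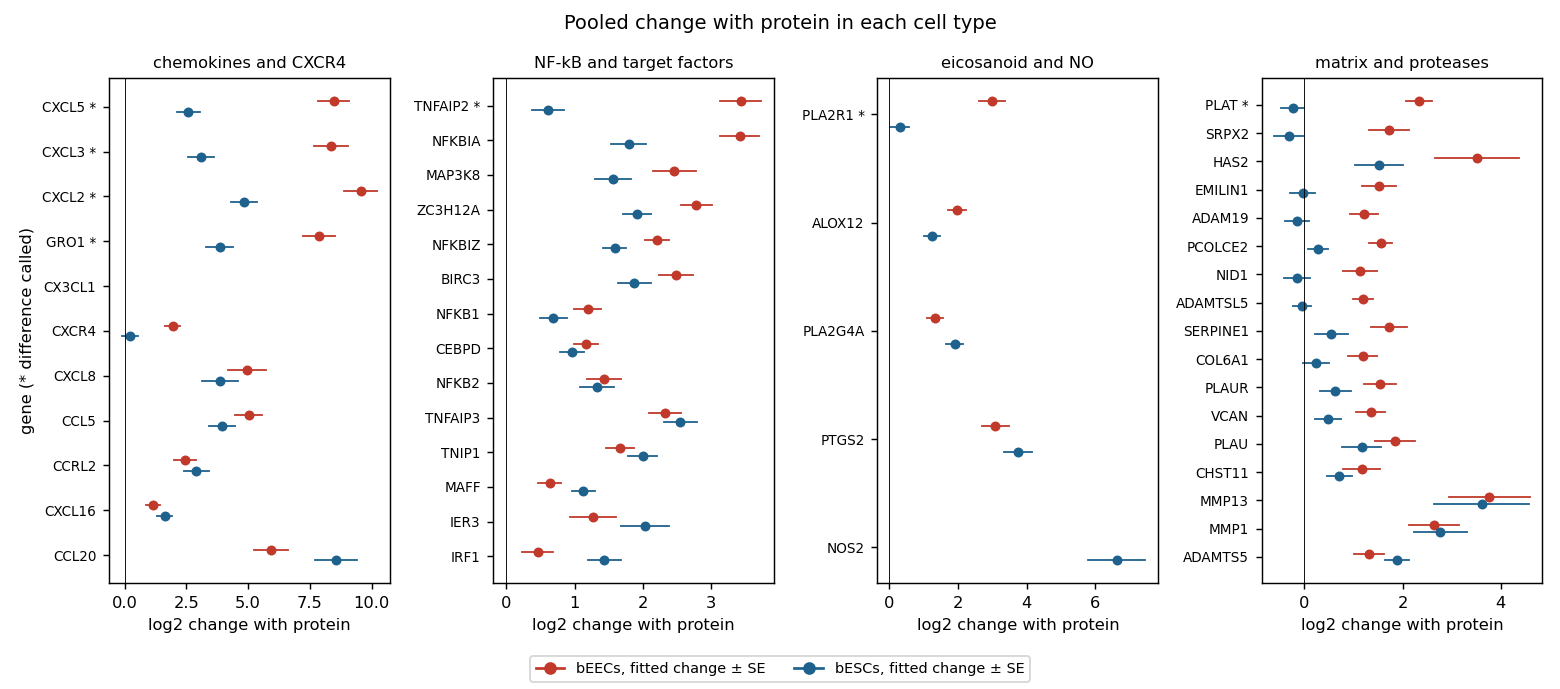
For 4 gene groups, the fitted pooled log2 change with protein ± SE is plotted for bEECs (red) and bESCs (blue), with an asterisk at genes whose difference was called. CX3CL1 in both cell types and NOS2 in bEECs carry no point because their VC samples all had 3 counts or fewer, and PTGS2, TNFAIP3 and MMP1 show changes of similar size in the 2 cell types.

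Of 17 extracellular matrix genes and matrix proteases, 15 rose in bEECs and 2 in bESCs, and the direct test called a difference for 1 of them. The median log2 difference was 1.17, and 16 of the 17 come from the table chosen in bEECs. The called gene was PLAT (ENSBTAG00000001244), tissue plasminogen activator, a protease that converts plasminogen to plasmin. PLAT was at 315, 918 and 399.8 CPM in VC bEECs, at 1822, 3100.0 and 2535 CPM with rbCAPG and at 1882, 2895 and 3076 CPM with rbPDI. In bESCs it was at 334, 304 and 803 CPM with VC, at 340.1, 336 and 591 CPM with rbCAPG and at 267, 279.6 and 493 CPM with rbPDI. The cell types were alike with VC and no longer overlapped with protein. The log2 difference was 2.58 (SE 0.34, edgeR adjusted p = 0.00293), with 2.71, 1.69 and 3.38 in the 3 animals, and its call was lost without the animal as a block (edgeR adjusted p = 0.155, range over the alternatives 1.73e-12 to 0.155). ADAMTSL5, a matrix protein related to ADAMTS proteases, had a log2 difference of 1.25 (edgeR adjusted p = 0.0580), PCOLCE2, an enhancer of procollagen processing, 1.28 (0.0818) and SRPX2, a secreted matrix protein, 2.04 (0.0997), none of them called. The collagenase MMP1, named after its values were seen, changed by 2.63 in bEECs and by 2.76 in bESCs (interval of the difference -1.55 to 1.29).

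Of 15 genes of complement and innate recognition, 12 rose in bEECs and 3 in bESCs, and 4 had a called larger change in bEECs, C1R, C1S, INAVA and CLEC1A. Of the 15, 12 come from the table chosen in bEECs and 3 from the table chosen in bESCs, so the split follows that choice. C1R and C1S are the proteases of the first complement component, and they lie side by side in the RefSeq gene table. Both were stromal transcripts by level. C1R (ENSBTAG00000008612) was at 0.242, 0.768 and 0.269 CPM in VC bEECs, at 1.32, 1.76 and 2.26 CPM with rbCAPG and at 2.26, 3.96 and 4.08 CPM with rbPDI, whereas bESCs held 103 to 231 CPM with VC and 156 to 347 CPM with protein. The log2 difference was 2.06 (SE 0.35, edgeR adjusted p = 0.0141), and it was 1.97 and 1.67 and not called without the VC bEEC samples of animals 1 and 3 (edgeR adjusted p = 0.0705 and 0.0916). C1S (ENSBTAG00000004840) was at 0.299 to 0.704 CPM in VC bEECs, 1.49 to 4.30 CPM with protein, and 204 to 673 CPM in all bESC samples, with a log2 difference of 2.02 (SE 0.41, edgeR adjusted p = 0.0450). C1S kept its call in 7 of the 18 fits that left out 1 library, with the highest edgeR adjusted p at 0.214.

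The other called members of this group were low in both cell types. INAVA (ENSBTAG00000047972), an adaptor in pattern recognition receptor signalling, ranged from 0.967 to 1.79 CPM in VC bEECs and from 2.46 to 4.62 CPM with protein, and from 0 to 1.18 CPM in bESCs. CLEC1A (ENSBTAG00000030424), a C-type lectin receptor, was not counted in any VC bEEC sample (0 in each of 3), whereas with rbCAPG it had 3, 17 and 38 and with rbPDI 32, 38 and 54 counts, which is at least 10.6-fold higher than the floor of 3 counts per library (mean over the group). In bESCs the counts of CLEC1A ran from 0 to 14. INAVA and CLEC1A kept their calls in 5 and 3 of the 18 fits, with the highest edgeR adjusted p-values at 0.111 and 0.181. CD14, the coreceptor for bacterial lipopolysaccharide, had a log2 difference of 1.59 that was not called (edgeR adjusted p = 0.0636), with 0.18 in animal 1 and 2.26 and 2.17 in animals 2 and 3.

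Of 18 transporters, channels and junction proteins, 13 rose in bEECs and 4 in bESCs, and 1 was called, SLC14A1 (ENSBTAG00000019870), a urea transporter. It was at 2.90, 4.35 and 2.33 CPM in VC bEECs, at 15.9, 11.6 and 7.06 CPM with rbCAPG and at 12.6, 11.6 and 6.28 CPM with rbPDI. In bESCs it was at 51.1, 54.3 and 64.5 CPM with VC, at 38.7, 18.3 and 47.7 CPM with rbCAPG and at 56.1, 22.0 and 32.2 CPM with rbPDI. SLC14A1 thus rose in bEECs without overlap (log2 change 1.72, SE 0.27), while the bESC change of -0.78 (SE 0.23) was not called (edgeR adjusted p = 0.190), and the difference was 2.50 (SE 0.35, edgeR adjusted p = 0.00426). The median log2 difference of the 18 was 1.70, or 1.13 with the 7 genes that had a group at 3 counts or fewer set to their bound. Of the 18, 14 come from the table chosen in bEECs and 4 from the table chosen in bESCs. Genes of vascular ligands, receptors and guidance rose in bEECs for 7 of 7 members and in bESCs for 0, all 7 from the table chosen in bEECs, and 0 of the differences were called by edgeR (5 of 7 at an unadjusted p under 0.05). DESeq2 values were kept for 5 of the 7, those chosen by smallest edgeR p or as markers, and 4 of these 5 were called. NRP2, a receptor for vascular growth factors and semaphorins, came nearest, with a log2 difference of 1.52 (edgeR adjusted p = 0.0568), and ESM1, a proteoglycan of endothelium, had a log2 difference of 1.83 (edgeR adjusted p = 0.122), moving from 754 to 1284 CPM with VC to 2997 to 6579 CPM with protein in bEECs.

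Outside these groups, CYRIA, FERMT1, NAV3, FMNL3, ZEB1, ZNF821, PRORP, VSTM4 and LIMD2 rose in bEECs and were not called in bESCs. CYRIA (ENSBTAG00000012779), a regulator of the actin cytoskeleton, was at 7.09 to 13.8 CPM in VC bEECs and 34.0 to 67.4 CPM with protein, and at 0.925 to 6.27 CPM in bESCs, with a log2 difference of 1.70 (SE 0.24, edgeR adjusted p = 0.00436) that lay between 1.64 and 1.81 in the 3 animals. FERMT1 (ENSBTAG00000020465), the epithelial kindlin that activates integrins, was at 16.1 to 20.3 CPM in VC bEECs and 41.7 to 58.5 CPM with protein. In bESCs FERMT1 lay between 3.86 and 9.48 CPM, and the log2 difference was 1.32 (SE 0.19, edgeR adjusted p = 0.00519). NAV3, a microtubule-associated protein, and FMNL3, a formin that builds actin filaments, had log2 differences of 2.40 (SE 0.36) and 1.36 (SE 0.22). Without the VC bEEC sample of animal 3, NAV3 was at 2.17 (edgeR adjusted p = 0.0524) and FMNL3 at 1.33 (0.0674), and FMNL3 was at 1.31 (0.0667) without that of animal 1, none of them called. PROKR2, a prokineticin receptor, had 1, 2 and 0 counts in VC bEECs and 10 to 61 counts with protein, which is at least 14.2-fold higher, and in bESCs it had 0 to 104 counts with most of them in animal 2. PROKR2, ZEB1, a repressor of epithelial genes, ZNF821, PRORP, VSTM4 and LIMD2 kept their calls in 9 to 15 of the 18 fits that left out 1 library. RASA2, TMEM176A, ANTXR2 and STOM were also called with the larger change in bEECs, with log2 differences from 1.07 to 2.31. ANTXR2 kept its call in 1 of the 18 fits that left out 1 library, TMEM176A in 7, and RASA2 and STOM in 9 each, with highest edgeR adjusted p-values of 0.209, 0.214, 0.143 and 0.142. With CD40 they are the 5 called genes that fell outside the rule for naming and were named after their values were seen.

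RBM47 (ENSBTAG00000002356), an RNA-binding protein of epithelia, differed through a fall in bESCs. In bEECs it lay between 90.0 and 112.6 CPM in all 9 samples (log2 change 0.16, SE 0.25, not called), and in bESCs it went from 14, 9 and 32 counts with VC to 9, 0 and 1 counts with rbCAPG and 0, 3 and 3 with rbPDI. This fall in bESCs (log2 change -2.71, SE 0.48, edgeR adjusted p = 0.0128) set a log2 difference of 2.86 that was kept in 6 of the 18 fits that left out 1 library (highest edgeR adjusted p 0.176).

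The 5 named genes with the larger change in bESCs all rose there and were not called in bEECs. All 5 come from the table chosen in bESCs. VEPH1 (ENSBTAG00000024643), a signalling adaptor with a pleckstrin homology domain, was at 0.220, 0.330 and 0.300 CPM in VC bESCs, at 1.09, 4.19 and 1.48 CPM with rbCAPG and at 3.13, 3.72 and 3.38 CPM with rbPDI. In bEECs it was at 3.51, 7.75 and 4.85 CPM with VC, at 1.53, 4.68 and 3.51 CPM with rbCAPG and at 1.45, 3.14 and 2.74 CPM with rbPDI, lower with protein than with VC in each animal. The log2 change was 3.24 in bESCs (SE 0.35) and -0.96 in bEECs (SE 0.25, short of the fold limit), and the difference of -4.19 (SE 0.43, edgeR adjusted p = 0.000494) kept its call in all 32 alternatives. The levels of VEPH1 differed by 3.93 on the log2 scale between the cell types with VC and by 0.04 with protein.

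TNFSF15 (ENSBTAG00000018069), a cytokine of the tumour necrosis factor family, was at 6.17, 4.17 and 7.46 CPM in VC bESCs, at 62.2, 157 and 60.3 CPM with rbCAPG and at 18.1, 68.5 and 167 CPM with rbPDI. In bEECs it was at 132, 208 and 347 CPM with VC and between 158 and 262 CPM with protein, and those groups overlapped. The log2 difference was -3.77 (SE 0.64, edgeR adjusted p = 0.0152), and it was not called without the VC bEEC sample of animal 3 (-3.56) or the VC bESC samples of animal 2 (-3.31) or 3 (-3.60), at edgeR adjusted p-values up to 0.0793. MARCHF3 (ENSBTAG00000006797), a membrane-bound ubiquitin ligase, was at 19.6 to 34.7 CPM in VC bESCs and 55.5 to 142 CPM with protein, and at 68.9 to 112 CPM in VC bEECs and 56.0 to 83.7 CPM with protein. Its log2 difference was -2.16 (SE 0.33, edgeR adjusted p = 0.00713). AHI1, a protein of the primary cilium, went from 74.7 to 106 CPM with VC to 189.7 to 398 CPM with protein in bESCs, and stayed between 23.1 and 43.7 CPM in bEECs (difference -1.62, SE 0.26, edgeR adjusted p = 0.00926, and -1.56 with 0.0599 without the VC bEEC sample of animal 3). RRAD, a small GTPase that inhibits calcium channels, had a log2 difference of -2.13 (SE 0.40, edgeR adjusted p = 0.0269), with -0.69 in animal 2 and -3.02 and -2.84 in animals 1 and 3, and kept its call in 11 of the 18 fits (highest edgeR adjusted p 0.134). Among genes that were not called, SLC39A14, a zinc transporter, and the tight junction gene OCLN had log2 differences of -0.88 and -2.46 (edgeR adjusted p = 0.112 and 0.0971).

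**Figure D4:**
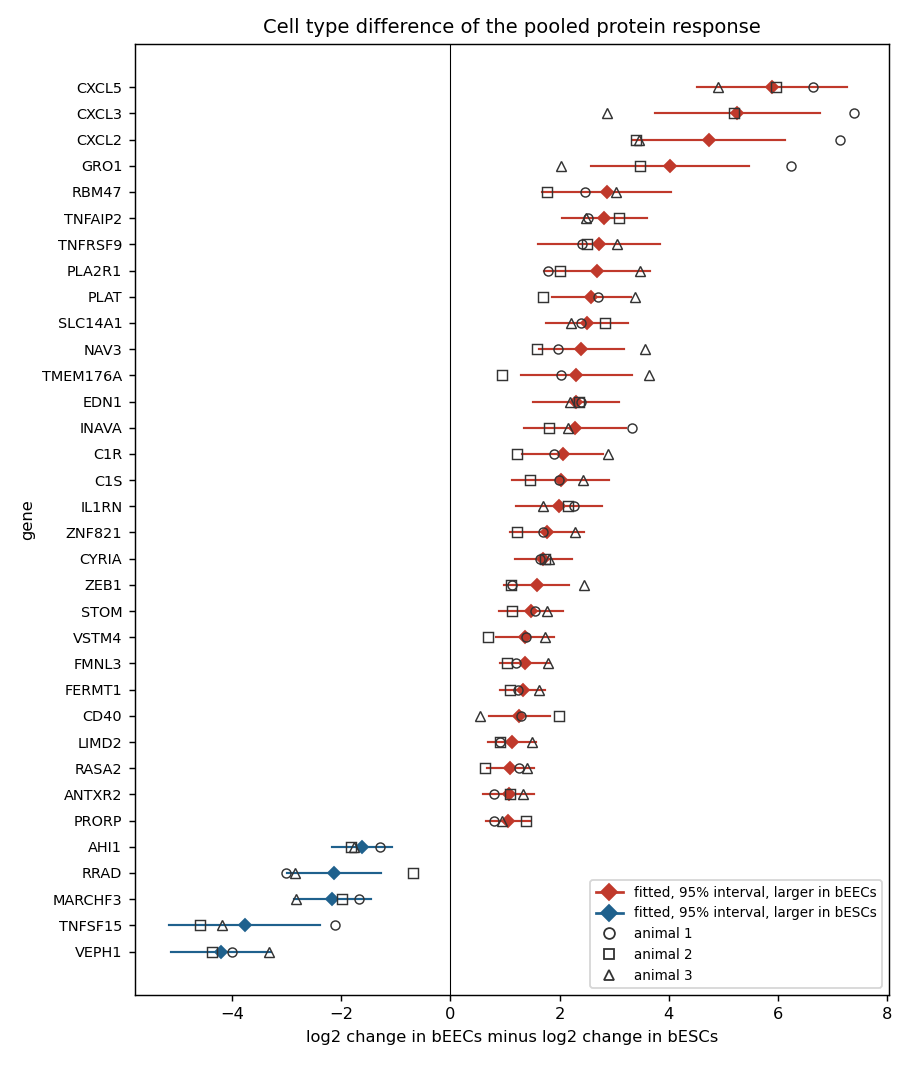
The fitted log2 difference (bEECs minus bESCs) is plotted with its 95% interval for 34 of the 36 called genes with a symbol, in red where above 0 and blue where below 0, with open symbols for each of the 3 animals. All open symbols of a gene lie on the same side of 0, and CLEC1A and PROKR2 are left out because their VC bEEC samples had 3 counts or fewer.

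A rise in both cell types was called for 74 genes (0.413% of those tested), which were 14.5% of the genes that rose in bEECs and 50.3% of those that rose in bESCs. Of these 74, 8 differed between the cell types, all with the larger rise in bEECs, and 66 were not called different. The 66 were split by sign, 34 larger in bEECs and 32 larger in bESCs, with a median log2 difference of 0.056.

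The cell types started from unequal levels, which affects what a log2 difference stands for. Among the 91 genes with the larger change in bEECs, 59 were lower in bEECs than in bESCs with VC, and 33 with protein. The median gap (mean log2 CPM in bEECs minus that in bESCs) was -1.06 with VC and 1.63 with protein. Among the 19 genes with the larger change in bESCs, the median gap was 1.49 with VC and -0.38 with protein. The VC samples enter both the gap and the change, so these values describe the genes and are no separate test. CXCL5 is an example of a gap that narrowed, from -7.68 to -1.84, CXCL3 of one that changed side, from -4.29 to 0.87, and PLAT of one that opened, from 0.17 to 2.76.

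**Figure D5:**
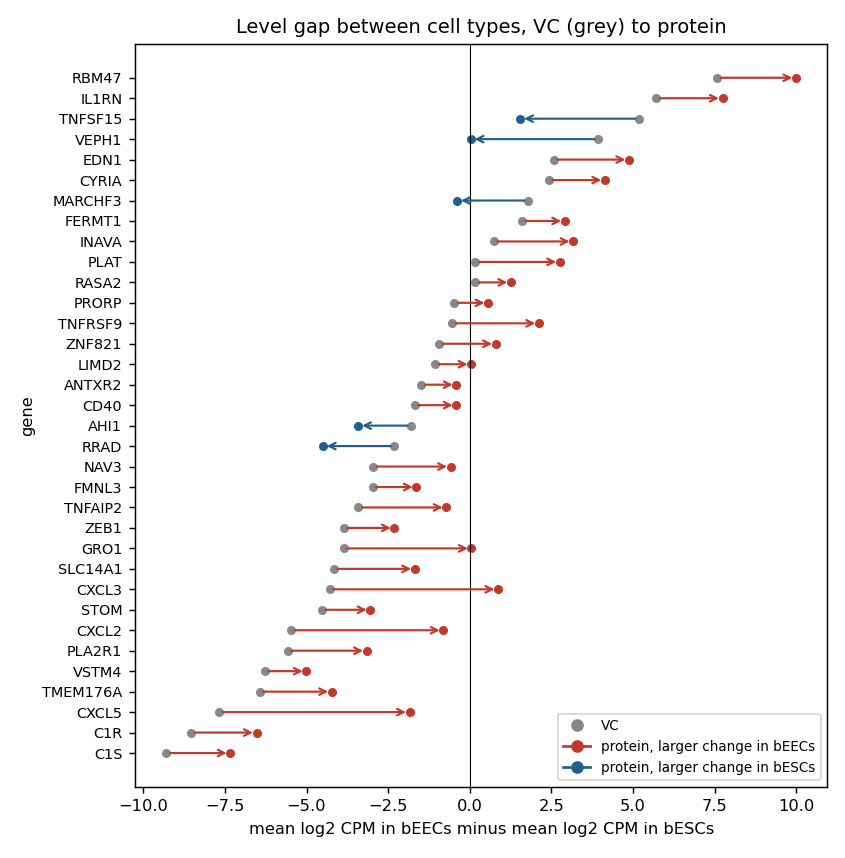
For 34 called genes with a symbol (CLEC1A and PROKR2 left out), the mean log2 CPM in bEECs minus that in bESCs is plotted with VC (grey) and with protein (red for a more positive change in bEECs, blue for a more positive change in bESCs). CXCL5 moves from -7.68 to -1.84, PLAT from 0.17 to 2.76 and VEPH1 from 3.93 to 0.04.

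On the CPM scale, where a gain is a difference in scaled counts rather than a fold change, the order of the cell types was not always kept. CPM is relative to each library and does not give transcripts per cell. The gain was larger in bEECs for 79 of the 91 genes, as it was for 49.6% of all tested genes, and it was larger in bESCs for 18 of the 19. CXCL5 gained 7838 ± 3551 CPM in bEECs and 21127 ± 4334 CPM in bESCs (SD, n = 3), the reverse of its log2 difference, and in each animal the gain was larger in bESCs. CXCL2 gained 767 ± 620.2 CPM in bEECs and 1041 ± 157 CPM in bESCs, with the larger gain in bEECs in 1 of 3 animals. C1R and C1S also gained more in bESCs in each animal, 69.7 ± 21.9 against 2.18 ± 0.681 CPM for C1R. For PLAT (2007 ± 439 against -95.9 ± 144 CPM), EDN1 (111 ± 52.5 against -0.597 ± 2.01 CPM) and CXCL3 (616 ± 224 against 300.3 ± 156 CPM), the gain was larger in bEECs in 3 of 3 animals.

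The cell type difference was also fitted for each protein alone, with the same VC samples in both. It was called for 40 genes with rbCAPG (0.223%), 34 larger in bEECs (0.19%) and 6 in bESCs (0.0335%). With rbPDI it was called for 79 (0.441%), 65 larger in bEECs (0.363%) and 14 in bESCs (0.0781%). The direct test of whether it depended on the protein called 0 genes by edgeR (452 at an unadjusted p under 0.05) and 3 by DESeq2. For CXCL5 the log2 difference was 5.91 with rbCAPG and 5.87 with rbPDI, and for PLAT it was 2.38 and 2.77. VEPH1 had -3.64 with rbCAPG and -4.75 with rbPDI, and EDN1 had 2.62 and 1.97. With 3 animals, the SE of these contrasts between proteins ran from 0.38 for PLAT to 0.66 for CXCL5, and a p that missed the threshold does not show that the proteins acted alike.

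Markers of other cell types moved in bEECs alongside these results. The summed level of 10 stromal markers was 12.4 to 24.7 CPM in VC bEECs, 33.9 to 74.7 CPM with rbCAPG and 25.1 to 60.9 CPM with rbPDI, against 391 to 703 CPM in bESCs. Of the 10 markers, 9 rose in bEECs and 1 in bESCs, and 1 difference was called, ZEB1 (log2 difference 1.58, SE 0.28, edgeR adjusted p = 0.0182), but 9 of the 10 come from the table chosen in bEECs. A set with no such choice, defined after seeing the data, was taken from all 18 samples, the 49 genes with a mean above 100 CPM in bESCs and under 1 in 50 of that in bEECs. Their median log2 change was 0.65 in bEECs and -0.23 in bESCs, and 45 of 49 were higher with protein in bEECs. There, 5 rises were called, and 2 of the 49 were among the 91 genes. Of all 17931 tested genes, 8858 were higher with protein in bEECs and 511 rises were called there (2.85%). The 91 genes were 0.508% of all tested. Of 69 genes restricted to bEECs by the same limits, 47 were higher with protein in bEECs, 13 rises were called and 3 were among the 91. The summed level of the 49 in bEECs with rbCAPG was 3.21, 0.863 and 2.95 times that with VC in animals 1, 2 and 3, and with rbPDI 1.44, 0.980 and 2.62 times. Of the 91 genes, 13 were over 10-fold higher in bESCs than in bEECs by their means over the 9 samples of each cell type, 21 were over 10-fold higher in bEECs and 57 lay between. The part of stromal transcripts in bEEC samples in these results was not tested.

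The epithelial markers were 683 to 1511 CPM in sum in VC bEECs, 2796 to 4362 CPM with protein, and at most 13.4 CPM in bESCs. Of the 6, 4 rose in bEECs. Most of the sum with protein was AGR2, at 203 to 852 CPM in VC bEECs and 1930 to 3356 CPM with protein. OCLN lay between 85.6 and 117.6 CPM and RBM47 between 90.0 and 112.6 CPM in all 9 bEEC samples. MUC1, AGR2, CFTR and FERMT1 come from the table chosen in bEECs. By level CFTR was higher in bESCs, at 1.76 to 4.41 CPM with VC, against 0.0897 to 0.0961 CPM in VC bEECs. AGR2 had 0, 1 and 0 counts in VC bESCs and at most 6 counts (0.522 CPM) with protein there. Its VC bESC group was thus at the floor, and no fitted difference is given for it. MUC1 had a log2 difference of -0.47 (SE 0.44). The sum of 5 leukocyte markers was 26.9 to 41.7 CPM in VC bEECs, 90.1 to 162 CPM with protein and 6.83 to 32.7 CPM in bESCs, with 4 of the 5 rising in bEECs, 1 in bESCs and 0 differences called by edgeR (3 at an unadjusted p under 0.05, 3 of 5 called by DESeq2). The sum of 4 endothelial markers, most of it ESM1 in bEECs, was 757 to 1287 CPM in VC bEECs, 3036 to 6586 CPM with protein and 252 to 736 CPM in bESCs, with CLEC1A at 0 counts in VC bEECs and TEK at 0.0302 to 0.128 CPM there. Of the 5 leukocyte markers, 4 come from the table chosen in bEECs, as do all 4 endothelial markers. Their rises in bEECs are for that reason no independent evidence. The part of leukocyte or endothelial transcripts in these results was not tested.

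Most of the 110 called genes had no symbol, and the 2 with the smallest p are described for each direction. ENSBTAG00000007449 was at 1.03, 0.608 and 1.85 CPM in VC bEECs, at 15.3, 23.7 and 62.0 CPM with rbCAPG and at 41.0, 48.7 and 73.5 CPM with rbPDI, while all 9 bESC samples were between 0 and 0.440 CPM (log2 difference 6.40, SE 0.53, edgeR adjusted p = 0.000195). ENSBTAG00000049589 went from 0.453 to 2.11 CPM with VC to 1573 to 4054 CPM with protein in bEECs and from 0.450 to 8.93 CPM to 14.3 to 162 CPM in bESCs, a log2 difference of 7.05 (SE 0.67, edgeR adjusted p = 0.000426). Both kept their calls in all 32 alternatives. In the other direction, ENSBTAG00000016906 (-3.06, SE 0.35, edgeR adjusted p = 0.00107) and ENSBTAG00000050417 (-1.78, SE 0.25, edgeR adjusted p = 0.00426) rose in bESCs and were not called in bEECs, where both were higher at the start. The samples of animal 2 held most of the former in bESCs, with 6.13 CPM with VC and 29.6 and 25.0 CPM with the proteins, against at most 3.30 CPM in animals 1 and 3.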

How the data were processed

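RNA was measured in 18 samples, 3 per group. The deposited values are estimated counts per gene, which the authors did not normalize. The authors trimmed reads with Trimmomatic, aligned them with STAR and counted them with featureCounts, dividing reads that matched several places or genes into fractions. Of the values of 36075 genes, 23.3% were not whole. The counting options that the authors list hold no strand setting, which in featureCounts means counting without strand, so reads of overlapping, antisense and related genes cannot be told apart. All 18 columns were used, and 0 were left over.

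Counts were rounded and analysed in R 4.3.3. edgeR 4.0.16 (filterByExpr, TMM, quasi-likelihood F-test) was fitted to all samples with a term for each animal in each cell type (8 residual and 5.7 prior degrees of freedom, common dispersion 0.0595) and a change for each protein in each cell type. P-values were adjusted by Benjamini-Hochberg over 17931 genes. CPM used TMM factors, and log2 CPM a prior count of 2. Groups with 3 counts or fewer in every sample were given as bounds against that floor per library, which covers counting error only. For this rule the rbCAPG and rbPDI samples of a cell type were taken as 1 group. Exact permutation of 3 against 3 cannot give a two-sided p under 0.1.

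Same-numbered samples come from the same animal by the study's methods. Their deviations from group means correlated across genes in each of 9 pairs in bEECs (mean 0.481, lowest 0.311) and 9 in bESCs (mean 0.396, lowest 0.129). Same-device pairs across cell types had a mean of 0.149.

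The fit was tested on simulated data with known changes before use. With 200 genes changed, edgeR called 150 genes, 3 of them not changed, and DESeq2 called 200, 32 of them not changed. Of the changed genes, edgeR recovered 73.5% and DESeq2 84%. In a simulated run without changes, edgeR called 0 genes and DESeq2 27. The DESeq2 calls given here, and the genes that edgeR did not call, are to be read with these values in mind. The simulation took its spread from edgeR and changed no low-count genes, so it cannot decide which tool is nearer the truth here.

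Alternatives were no block, a device block, DESeq2, other size factors, other filters and limits, unrounded values, single samples or animals left out, and, chosen after seeing the data, both shallow bESC libraries left out. Named were the 20 called genes with a symbol and the smallest p with the larger change in bEECs, up to 10 in bESCs, the 4 smallest p of each list, the markers, and 2 identifiers per direction. Members and lists were chosen with earlier results of these data known. Columns of fold changes and p-values in the supplementary tables were not used, and the proteomics was not analysed here.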

Additional observations from a re-analysis of the deposited data

Results flagged for a closer look

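Each result here was singled out because the effect of the proteins differed between the 2 cell types by a direct test of that difference (edgeR). The difference was called for 110 genes over both proteins, for 40 with rbCAPG alone and for 79 with rbPDI alone. The values that follow are log2 differences, bEECs minus bESCs, unless a fold is named.

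Among chemokines and inflammatory genes, the difference was 5.89 for CXCL5, 5.26 for CXCL3, 4.73 for CXCL2, 4.02 for GRO1, 2.82 for TNFAIP2, 2.72 for TNFRSF9, 2.30 for EDN1, 1.98 for IL1RN and 1.26 for CD40. For matrix, lipid receptor, complement and transport genes it was 2.58 for PLAT, 2.69 for PLA2R1, 2.06 for C1R, 2.02 for C1S, 2.28 for INAVA and 2.50 for SLC14A1.

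Other genes with the larger change in bEECs were CYRIA (1.70), FERMT1 (1.32), NAV3 (2.40), FMNL3 (1.36), ZEB1 (1.58), ZNF821 (1.77), PRORP (1.05), VSTM4 (1.37), LIMD2 (1.12), RASA2 (1.10), TMEM176A (2.31), ANTXR2 (1.07) and STOM (1.47). RBM47 (2.86) differed through a fall in bESCs and was not called in bEECs. In bEECs, PROKR2 was at least 14.2-fold and CLEC1A at least 10.6-fold higher with protein than the floor of 3 counts per library. Without a symbol, ENSBTAG00000007449 had 6.40 and ENSBTAG00000049589 had 7.05.

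With the larger change in bESCs, VEPH1 had -4.19, TNFSF15 -3.77, MARCHF3 -2.16, RRAD -2.13, AHI1 -1.62, ENSBTAG00000016906 -3.06 and ENSBTAG00000050417 -1.78. Groups of 3 samples are too small for a test of single outlying samples.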

How the results depend on the processing

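The count of genes with a called cell type difference was 110, and it was 25 with no replicate block, 43 with a block by device, 449 with DESeq2, 281 with no filter on low counts and 23 with a test against a log2 limit (glmTreat). It ranged from 37 to 143 over fits without 1 library, and was 9, 52 and 29 without animals 1, 2 and 3. For rbCAPG (40 genes) these counts were 12, 12, 271, 104 and 8, with 0 to 47 over fits without a library or animal (0 without animal 1, with 887 genes at an unadjusted p under 0.05). For rbPDI (79) they were 17, 35, 399, 230 and 24, with 4 to 129. The bEEC response (588) was 170 with no replicate block, 945 with no limit on the log2 value and 139 with glmTreat, with 222 to 669 over fits without a library or animal. The bESC response (155) was 30 with no replicate block, 275 with DESeq2, 267 with no filter and 30 with glmTreat, with 49 to 195. Dependence on the protein (0 genes by edgeR, 452 at an unadjusted p under 0.05) was called for 3 genes by DESeq2, 6 with no filter, and 0 to 2 without a library or animal. Without both shallow bESC libraries, an alternative chosen after seeing the data, 92 genes were called for bESCs, 24 for rbCAPG, 50 for rbPDI and 76 for the pooled difference. A block by device gives no value for the response of 1 cell type. The cause of these changes was not tested, apart from fewer samples where some were left out.

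With no replicate block 9 of 40 named called genes kept their call, with the block by device 15, with DESeq2 40 and with glmTreat 9. Without the pairing of samples by animal, 31 of the 40 thus lost their call, each with the same sign. No called gene reversed on the log2 scale. On the CPM scale, the gain in bEECs minus that in bESCs reversed the sign for CXCL5 (-13288.6), CXCL2 (-273.8), PLA2R1 (-2.11), C1R (-67.5), VSTM4 (-4.16), C1S (-142), STOM (-53.3), CD40 (-0.675) and ENSBTAG00000050417 (2.82). Among genes not called, AGR2 was at -0.12 with no replicate block and from -1.79 to 1.32 without a library or animal, and MUC1 from -1.41 to 0.14.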
